A study of Homo sapiens with 16 samples.

Results

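The genes for ribosomal RNA stand in tandem arrays. RNA polymerase I reads each unit of the rDNA array into a 45S precursor, from which the 18S, 5.8S and 28S rRNAs are cut, and a long intergenic spacer separates one transcribed unit from the next. The 5S rRNA is made elsewhere by RNA polymerase III, from short units in an array on chromosome 1. The rDNA arrays lie on the short arms of the acrocentric chromosomes and form the nucleolus, and the reference genome holds far fewer copies of them than a cell does. Runs of guanines in such DNA can fold into G-quadruplexes (G4s), four-stranded structures that the 1H6 antibody binds.

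The regions described here are the peaks that overlap the rDNA on chromosome 21 between 8.2 and 8.5 Mb of hg38, or the 5S array on chromosome 1 between 228.58 and 228.66 Mb, in any of 9 lists of broad peaks. They were selected on measured values, since a peak is itself a called enrichment, so their presence is given as a description without a test. There were 203 of them among 40118 peaks in all, 147 in the rDNA window and 56 in the 5S window. All 9 lists come from HEK293T, a human embryonic kidney cell line. For both G4 DNA-IP lists the 1H6 antibody was given to purified DNA of untransduced cells, which was native in G4 DNA-IPnat and had been melted by heat and chilled quickly in G4 DNA-IPdenat. G4-ChIP used fixed and sonicated chromatin, and AbC G4-ChIP gave the antibody to fixed and permeabilized cells before sonication. The AbC lists came from cells with a non-targeting shRNA (CT) or an shRNA against CGGBP1 (KD), a protein that binds CGG-rich repeats. Within each shRNA, nuc had no control DNA. In ut, control DNA mixed with carrier DNA was crosslinked to antibody and added to the lysate. The amount of control DNA in ut was 500 ng by the labels and 1.25 µg by the methods. In tr, 1.25 µg of control DNA was transfected for 12 h together with carrier DNA. The authors pooled 4 replicates into each library, so every list stands for 1 library, and the nuc pair was sequenced on an Ion Torrent S5 while all others were sequenced on a MinION. Lists held between 226 and 15709 peaks. Peak lists carry no read counts, so the depth behind each peak is not known from them.

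RefSeq places 3 whole copies of the 45S gene in the window, all on the plus strand. RNA45SN2 lies at chr21:8205988-8219302, RNA45SN3 at chr21:8389035-8402343 and RNA45SN1 at chr21:8433222-8446572. With the spacer up to the next 45S start the first copy is 44209 bp long and the second 44187 bp, and the third runs 39139 bp into an assembly gap. Another 45S start at 8250197 is cut short by a gap and carries the pseudogenes RNA18SP5 and RNA5-8SP10. Of the 300000 bases in the window, 77641 are unknown in hg38 and 222359 are known. The 3 copies with their spacers make up 127535 bases, so shares of the known window also count bases outside them. The 5S array has 17 annotated genes, RNA5S1 to RNA5S17, on the minus strand from 228610266 to 228646158, each 121 bp long and spaced between 2215 and 2242 bp apart. The 5S window has 51636 known bases.

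Sequences from hg38 are shown for the places on which the description turns, with every base in a run of GGG or CCC in capitals. The first holds the 300 bases around the 45S start of RNA45SN1 (chr21:8433072-8433371, plus strand), with 6 lists overlapping. Then comes the middle of the 18S gene of RNA45SN1 (chr21:8437661-8437960, plus strand), overlapped in 8 lists, 7 of which covered it whole, and not in G4 DNA-IPdenat. The last is the stretch of the second internal transcribed spacer (ITS2) of RNA45SN1 that has the most GGG and CCC (chr21:8439979-8440278, plus strand), with no peak in any list. The 18S and ITS2 stretches were picked with their coverage already known.
45S start of RNA45SN1: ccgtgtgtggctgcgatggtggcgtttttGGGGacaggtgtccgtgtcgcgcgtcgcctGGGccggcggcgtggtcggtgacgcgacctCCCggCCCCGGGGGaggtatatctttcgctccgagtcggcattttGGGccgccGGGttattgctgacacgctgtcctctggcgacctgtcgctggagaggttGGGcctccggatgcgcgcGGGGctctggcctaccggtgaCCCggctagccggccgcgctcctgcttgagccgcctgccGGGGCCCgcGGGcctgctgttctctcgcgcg
18S of RNA45SN1: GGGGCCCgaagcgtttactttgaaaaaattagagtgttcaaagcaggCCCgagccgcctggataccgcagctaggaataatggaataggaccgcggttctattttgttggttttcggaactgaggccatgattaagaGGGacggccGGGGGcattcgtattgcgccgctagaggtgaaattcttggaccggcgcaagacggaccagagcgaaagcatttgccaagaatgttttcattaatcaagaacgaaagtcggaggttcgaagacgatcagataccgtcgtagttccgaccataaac
ITS2 of RNA45SN1: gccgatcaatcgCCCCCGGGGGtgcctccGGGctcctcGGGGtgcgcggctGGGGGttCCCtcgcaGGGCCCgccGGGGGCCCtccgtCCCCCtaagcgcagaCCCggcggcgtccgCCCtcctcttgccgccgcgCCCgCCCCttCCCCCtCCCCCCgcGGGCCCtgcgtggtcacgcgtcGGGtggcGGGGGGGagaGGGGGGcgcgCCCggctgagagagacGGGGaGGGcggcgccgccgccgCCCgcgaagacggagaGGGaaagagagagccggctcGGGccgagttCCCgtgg
GGG or CCC began at 54 positions of the ITS2 stretch, at 19 around the 45S start and at 8 in the 18S stretch. The GC content was 80.0% in the ITS2 stretch, 71.3% around the 45S start and 50% in the 18S stretch. Of these 3 sequences, the ITS2 stretch alone held the canonical G4 motif, counted here as at least 4 runs of GGG with loops of 1 to 7 bases on either strand.

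Every list had peaks in the rDNA window. In G4 DNA-IPnat 12 peaks covered 89691 bp, which was 40.3% of the known bases. G4 DNA-IPdenat also had 12 peaks, which covered 69866 bp (31.4%), and the 12 peaks of G4-ChIP covered 52212 bp (23.5%). The nuc lists had the most peaks, with 30 over 88885 bp (40.0%) in CTnuc and 24 over 108103 bp (48.6%) in KDnuc. CTut had 15 peaks over 91201 bp (41.0%) and KDut 12 peaks over 112272 bp (50.5%). CTtr had 19 peaks over 78967 bp (35.5%) and KDtr 11 peaks over 120219 bp (54.1%). The lowest coverage was thus that of G4-ChIP and the highest that of KDtr.

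The same lists covered between 0.0233% (G4 DNA-IPnat) and 1.15% (G4 DNA-IPdenat) of the known genome. Of 9730 tiled windows of the same length, 0.791% had a peak in all 9 lists. No tiled window was covered as much as the rDNA in G4 DNA-IPnat, where the rDNA window held 13.2% of all bases listed. In CTnuc 3 tiled windows were covered at least as much, in KDnuc 5, and in the other 6 lists between 16 and 31. The longest peak of G4 DNA-IPnat in the whole genome, 30979 bp, lay in the spacer after RNA45SN3 and ended within the 45S gene of RNA45SN1.

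Peaks in the rDNA stood high in most lists by fold, the enrichment over background that MACS2 gave to each peak. Of the 147 peaks, 143 lay above the median fold of their own list and 85 were among its top 100. A top 100 takes in much of the 226 peaks of G4 DNA-IPnat and little of the 15709 of G4 DNA-IPdenat. Each of these lists gave 8 of the 85. CTnuc gave 17, KDnuc 19, CTut 9, KDut 6, CTtr 9, KDtr 7 and G4-ChIP 2. The highest fold was 25.4 in KDnuc, at rank 23 of 7753, and 23.4 in CTnuc, at rank 16 of 3796. In G4 DNA-IPdenat it was 17.6, at rank 13 of 15709. CTut reached 14.0 at rank 7 of 3496 and KDut 14.6 at rank 9 of 2927. CTtr reached 10.3 and KDtr 13.3, both at rank 25 in lists of 2367 and 2389 peaks. In the remaining lists the highest fold was 7.07 at rank 33 of 226 in G4 DNA-IPnat and 6.29 at rank 68 of 1455 in G4-ChIP. The other 7 lists were called against one fixed background in place of a local one, which the methods do not name for these last lists, so folds were not compared across the lists. How much the many copies of the rDNA in the cell contributed to the fold was not tested, since the inputs were not analysed here.

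**Figure D1:**
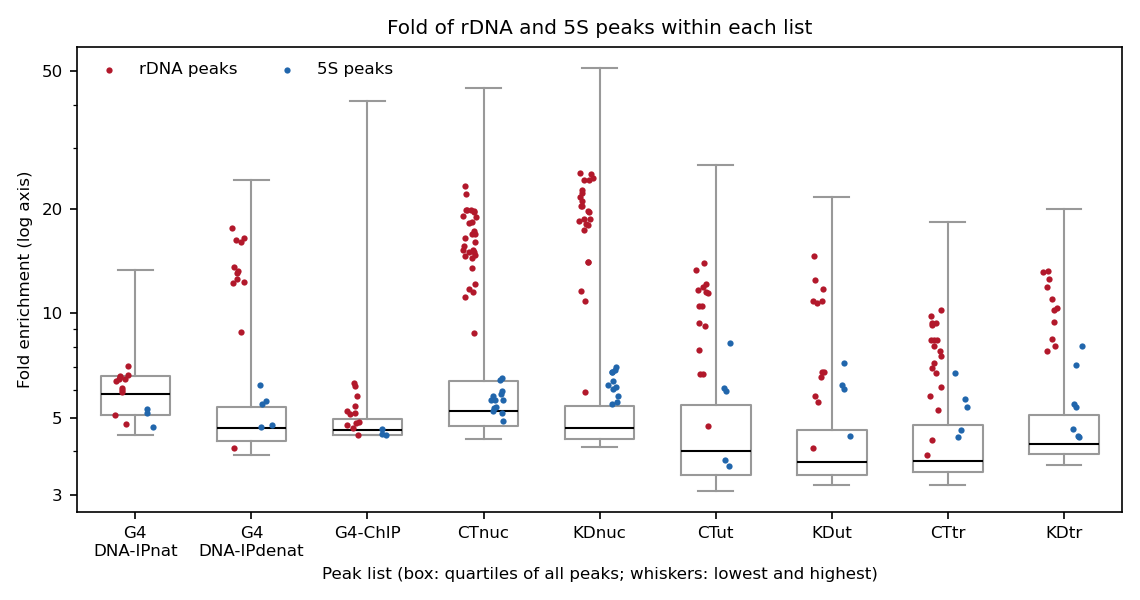
Fold enrichment of each rDNA peak (red) and 5S peak (blue) in the 9 lists on a log axis, with boxes for the quartiles of all peaks of a list, a line for the median and whiskers from the lowest to the highest peak. The rDNA peaks of CTnuc, between 8.76 and 23.4, lie far above the median of 5.22 of that list, and the 5S peaks lie close to the median or below it in G4 DNA-IPnat and G4-ChIP.

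The peaks were not spread evenly over the repeat unit. The 18S gene, the RNA of the small ribosomal subunit, was overlapped in all 3 copies by 8 lists and in none by G4 DNA-IPdenat. Over the 3 copies together, 86.3% of the 18S bases lay in peaks in G4 DNA-IPnat, 65.3% in G4-ChIP, 91.0% in CTtr, 98.3% in CTnuc and 98.7% in KDnuc. In CTut, KDut and KDtr the whole 18S gene was covered in every copy. In G4 DNA-IPdenat 0 of 5607 bases were covered, although that list had the most peaks of all. The folds of the 18S peaks in RNA45SN3 were 22.1 in CTnuc and 25.3 in KDnuc, 11.9 in CTut and 10.7 in KDut, 7.53 in CTtr and 9.44 in KDtr, 6.61 in G4 DNA-IPnat and 5.24 in G4-ChIP. Coverage of the 18S gene by G4-ChIP was less even, at 80.0% in RNA45SN2, 78.4% in RNA45SN3 and 37.5% in RNA45SN1.

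The transcribed spacers around 5.8S, the small RNA of the large subunit, were left out by most lists. ITS2 had no covered base in 7 lists, 0.573% of its bases in KDut and 7.25% in KDtr. The 5.8S gene was covered in 1 of 3 copies in KDut and in KDtr and in no copy elsewhere. ITS1 was covered to 42.2% in KDut and 43.0% in KDtr and to at most 6.12% in the other 7 lists. Of the 8440 bases of the 3 units that no list covered, 38.1% lay in ITS2, 29.6% in 28S and 18.6% in the 5′ external transcribed spacer. The intergenic spacer held 62 such bases.

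The 5′ external transcribed spacer, which lies between the 45S start and 18S and is removed from the precursor, differed widely between the lists. It had no base in peaks in G4 DNA-IPdenat or G4-ChIP, 8.69% in CTtr, 13.1% in CTnuc, 14.6% in G4 DNA-IPnat and 18.9% in KDut. It was covered to 49.1% in CTut, 61.6% in KDnuc and 82.5% in KDtr. The 300 bases around the 45S start, printed above for RNA45SN1, were overlapped by 6 lists in that copy, by CTnuc, KDnuc, CTut and KDtr at RNA45SN3, and by CTnuc, KDnuc and KDtr at RNA45SN2. The cut-short start at 8250197 was overlapped by the last 3 lists as well.

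The 28S gene, the main RNA of the large subunit, was covered mostly on its 3′ side. From the midpoint of the gene to its end, coverage was 72.6% in G4 DNA-IPnat, 90.5% in G4-ChIP and between 56.6% (CTtr) and 98.4% (KDut) in the AbC lists. From the start to the midpoint it was 20.3%, 37.5% and between 15.5% (CTtr) and 67.1% (KDtr). GC contents of 70.3% before and 68.3% after the midpoint were close. G4 DNA-IPdenat covered 12.0% after the midpoint and 0 bases before it, all of it the start of 1 peak at RNA45SN1.

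**Figure D2:**
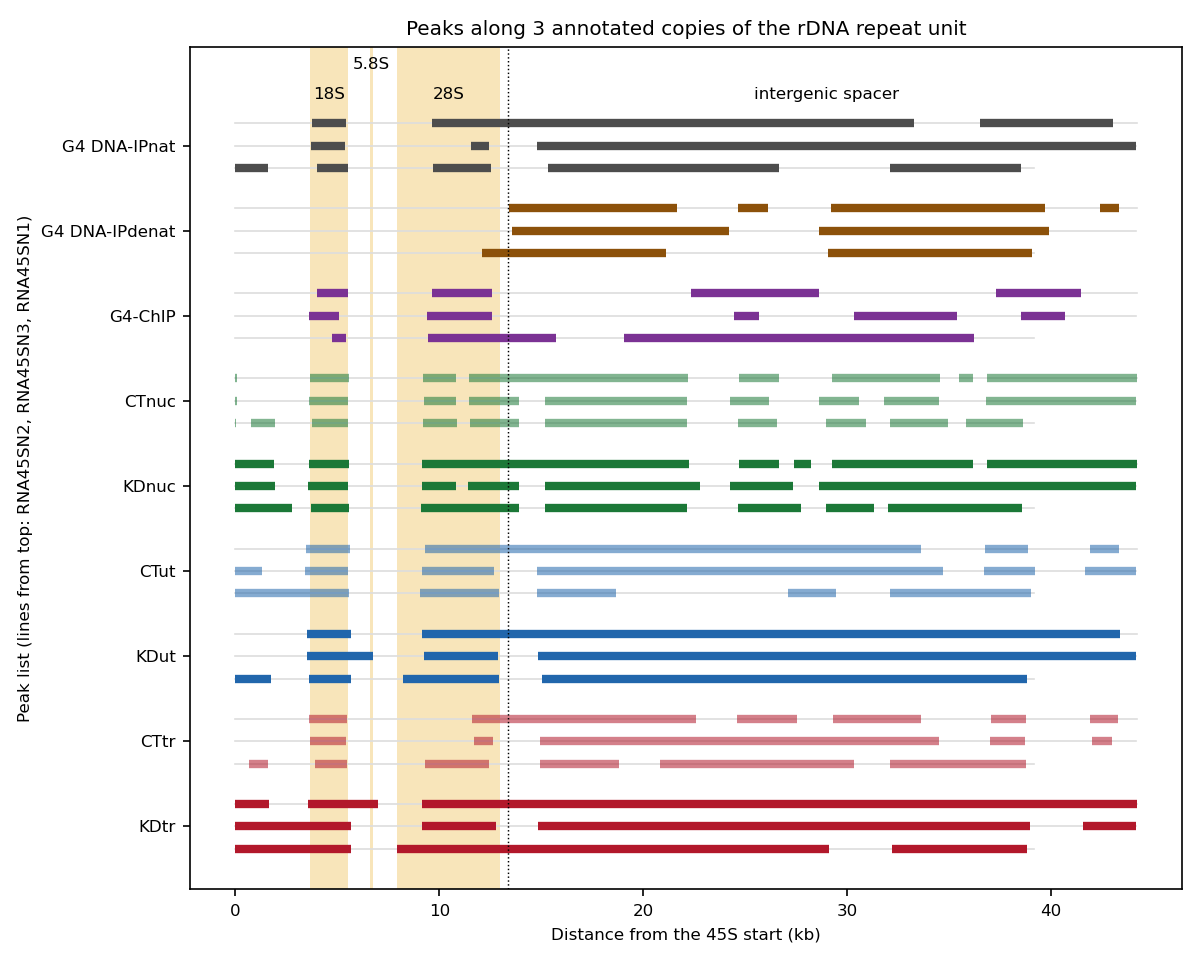
Peaks of the 9 lists (bars) along 3 copies of the rDNA unit, by distance from the 45S start in kb, with the 18S, 5.8S and 28S genes of RNA45SN1 shaded and a dotted line at the end of its transcribed unit. The lines of each list are, from the top, RNA45SN2, RNA45SN3 and the shorter RNA45SN1, and G4 DNA-IPdenat is the list with no bar over 18S.

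The intergenic spacer, which holds no rRNA gene, makes up 68.7% of the 127535 bases of the 3 units. Of the bases that each list covered in the units, 97.9% lay in the spacer in G4 DNA-IPdenat and between 73.0% (KDtr) and 84.2% (G4 DNA-IPnat) in the others, close to its share by length in KDtr, CTut (73.3%) and G4-ChIP (73.7%). The spacer was covered to 43.9% in G4-ChIP, 69.4% in G4 DNA-IPdenat, 70.7% in CTut, 70.8% in CTtr, 71.7% in CTnuc, 82.8% in KDnuc, 84.0% in G4 DNA-IPnat, 91.4% in KDtr and 95.0% in KDut. The transcribed unit was covered to 3.18% in G4 DNA-IPdenat and between 29.8% (CTtr) and 74.2% (KDtr) in the others. The peak with the highest fold in the window lay in the spacer in 8 lists. In G4-ChIP it was a 28S peak of RNA45SN3, 3200 bp long.

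Within the spacer, coverage was followed in steps of 5 kb from the end of the 45S gene. G4 DNA-IPdenat and G4-ChIP went in opposite directions there. In the first 5 kb, G4 DNA-IPdenat covered 97.6% of the bases and G4-ChIP 15.9%. Between 10 and 15 kb, G4 DNA-IPdenat covered 15.5% and G4-ChIP 75.1%. G4 DNA-IPnat covered 76.7% and 88.6% at these places. The highest fold of G4 DNA-IPdenat in the window, 17.6, belonged to an 8223-bp peak that began 107 bases past the end of RNA45SN2.

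All 9 lists together covered 9 stretches of the window, 9952 bp in sum and between 176 and 2776 bp each. Of these, 8 lay in the spacer and 1, of 382 bp, in 28S of RNA45SN1. The longest, chr21:8465396-8468171, starts 32.2 kb from the 45S start of RNA45SN1, and the next longest, of 2734 bp, starts 31.8 kb from that of RNA45SN3, so that both lie at nearly the same place in their units. There the folds of G4 DNA-IPnat were 6.08 and 6.53, those of G4-ChIP 5.12 and 4.77, and those of G4 DNA-IPdenat 13.2 and 12.3. In CT they were 19.1 and 19.9 (nuc), 10.5 and 12.1 (ut), and 9.80 and 9.26 (tr), and in KD 24.3 and 20.4, 14.6 and 11.7, and 12.6 and 13.3. Both touch a pseudogene of CDC27, a subunit of the anaphase-promoting complex, and 4 of the 9 stretches do so. CDC27P10 and CDC27P11 were overlapped by all 9 lists, and CDC27P9 by all but G4-ChIP.

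**Figure D3:**
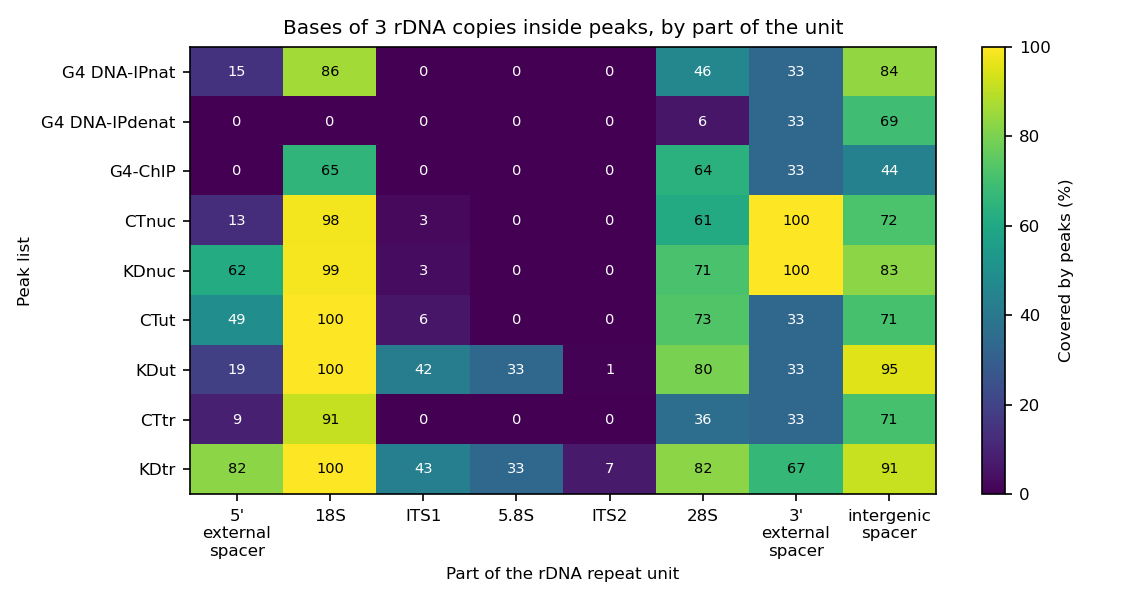
Share of the bases of each part of the unit that lay in peaks (%), over the 3 copies together, for the 9 lists, with ITS1 and ITS2 for the internal transcribed spacers. The 18S column reads 65.3% or more in every list but G4 DNA-IPdenat, where it reads 0, and the ITS2 column stays at or under 7.25%.

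Over the 3 units together, the bases covered by more lists had a lower GC content. The bases covered by no list had a GC content of 79.3% and 143 starts of GGG or CCC per kb. Bases covered by 1 to 4 lists had 69.3% and 94.8 per kb, those covered by 5 to 8 lists 54.7% and 50.05 per kb, and those covered by all 9 lists 50.2% and 43.3 per kb. The canonical motif followed the same order, with 40.3, 18.5, 7.95 and 5.02 matches per 10 kb. The 3′ external transcribed spacer, a short stretch after 28S, went against this order. It had the highest GC content of all parts, between 83.9% and 84.0%, yet it was covered whole in all 3 copies in CTnuc and KDnuc, and each of its bases was covered by at least 1 list. The 5.8S gene went against the order from the other side. Its GC content was 57.3%, with 38.2 starts of GGG or CCC per kb, yet 33.3% of its bases were covered by no list. In each of the 9 lists the covered bases had fewer GGG and CCC than the bases left out. The smallest gap was that of G4-ChIP, with 50.5 against 71.9 per kb, and the widest that of KDut, with 51.3 against 118 per kb. The motif was found in 39.7% of the 300-base tiles of the transcribed units and 14.2% of those of the spacer, against 24.9% of 35116 promoters of that length in RefSeq. These bases share their reads and lie in 3 near copies of one unit, so the figures describe this place and are not a test.

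The 3 copies were not covered alike in all lists. Position by position from the 45S start, over 39139 positions, the copies had the same state at 83.6% of positions in KDut, 82.9% in G4 DNA-IPdenat, 79.1% in KDnuc, 78.5% in CTnuc and 74.7% in KDtr. This share was 58.5% in G4 DNA-IPnat, 55.9% in CTtr, 47.9% in CTut and 42.0% in G4-ChIP. The copies are close to identical in hg38. Of all stretches of 160 bases in the units, 11.1% occurred once in the window, and 3.16% of those in 18S did. With stretches of 1000 bases the shares were 45.9% and 18.1%. The authors state that only uniquely aligned reads were kept. By the paper's supplement, the average nuc read is close to 160 bases long. Over the 3 copies, 98.3% of the 18S bases lay in peaks in CTnuc and 98.7% in KDnuc. How reads that match several copies were placed is not known from the lists. What decided the copy on which a peak was called was not tested.

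The deposited nuc lists skip numbers in their peak names, and the place of the skipped numbers touches the gaps described above. Between the first and the last rDNA peak, 13 of 43 numbers were absent in CTnuc and 11 of 35 in KDnuc, while the other 7 lists were complete. Over the whole lists 64.7% of the numbers were absent in CTnuc and 65.2% in KDnuc, so the ranks given for the nuc lists are ranks among the listed peaks. Of the numbers absent within the rDNA, 6 in each list fell between the 18S and the 28S peaks of the 3 copies, where ITS1, 5.8S and ITS2 lie. CTnuc also skips 1 number over the 5′ external transcribed spacer of RNA45SN2 and 1 over that of RNA45SN3, and KDnuc 1 over that of RNA45SN2. The absence of nuc peaks at these places is therefore that of the listed peaks only. The other lists, which skip no number, likewise left ITS2 without a peak, apart from KDut and KDtr.

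KD lists covered more of the rDNA window than CT lists in all 3 pairs. Coverage of the known bases was 40.0% in CTnuc and 48.6% in KDnuc, 41.0% in CTut and 50.5% in KDut, and 35.5% in CTtr and 54.1% in KDtr. Mean coverage was 51.1% ± 2.77 (SD, n = 3 lists) in KD and 38.8% ± 2.92 (SD, n = 3 lists) in CT. The mean difference was 12.2 ± 5.50 percentage points (SD, n = 3 pairs), with p = 0.25 in an exact two-sided sign-flip permutation test, the smallest p that 3 pairs allow. KD covered more than CT in all 3 pairs in 6.89% of the 1480 tiled windows with an AbC peak. Windows that lacked a peak in any pair could not count, and only 628 of the 1480 had a tr peak. Within a pair, KD covered more in 96.5% of the 1298 windows with a nuc peak, in 40.2% of the 767 with a ut peak and in 46.5% of the 628 with a tr peak. Of the 127534 known bases of the 3 rDNA units, CTnuc covered 80169 and KDnuc 96780. The counts were 84498 in CTut and 104902 in KDut, and 73929 in CTtr and 109716 in KDtr.

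The bases gained with KD were mostly added to those of CT. KDnuc contained 99.9% of the rDNA bases of CTnuc, KDut 94.0% of those of CTut and KDtr 98.3% of those of CTtr. Within the units, the intergenic spacer took 58.4% of the bases listed only in KD in the nuc pair, where it made up 52.3% of the bases that CT had left out. The shares were 89.6% and 59.6% in the ut pair, and 52.1% and 47.6% in the tr pair. The 18S gene changed by at most 8.95 percentage points, in the tr pair, and was already covered to 91.0% or more in CT. Coverage of 28S was higher in KD by 10.4 (nuc), 7.06 (ut) and 46.3 (tr) percentage points. The 5′ external transcribed spacer had 48.5 and 73.8 percentage points more in KD in the nuc and tr pairs, and in the ut pair 49.1% of it was covered in CT and 18.9% in KD.

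Fold over the bases that both lists of a pair covered was compared next. The mean fold was 16.5 in CTnuc and 20.1 in KDnuc, 10.8 in CTut and 11.1 in KDut, and 8.41 in CTtr and 12.2 in KDtr. Counted by shared stretches of peaks, KD was higher in 29 of 30 in the nuc pair, where 46.3% of the stretches shared elsewhere in the genome were higher. It was higher in 10 of 16 in the ut pair, against 46.6% elsewhere, but on 36.3% of the shared bases of that pair, where the other pairs had 97.4% (nuc) and 100% (tr). It was higher in 19 of 19 in the tr pair, against 87.9% elsewhere. The median ratio of KD to CT was 1.22 in the rDNA and 0.990 elsewhere (nuc), 1.03 and 0.979 (ut), and 1.42 and 1.13 (tr). Shared stretches of 1 array are not independent, and no test was made on them.

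Peaks over the 5S array were present in all 9 lists too and had lower folds. Of 36394 tiled windows of 80000 bp, 0.245% had a peak in all 9 lists. G4 DNA-IPnat had 3 peaks over 5064 bp and G4-ChIP 3 peaks over 5948 bp. G4 DNA-IPdenat had 5 peaks over 26865 bp. The AbC lists had 13 peaks over 18373 bp in CTnuc, 11 over 27920 bp in KDnuc, 5 over 26699 bp in CTut, 4 over 31935 bp in KDut, 5 over 27957 bp in CTtr and 7 over 25477 bp in KDtr. G4 DNA-IPnat and G4-ChIP thus covered the 5S array least.

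None of the 56 peaks in the 5S window was among the top 100 of its list, and 47 lay above the list's median fold. The highest fold was 8.22 at rank 258 in CTut and 8.07 at rank 171 in KDtr. It was 7.19 in KDut, 7.01 in KDnuc, 6.72 in CTtr, 6.49 in CTnuc, 6.22 in G4 DNA-IPdenat, 5.31 in G4 DNA-IPnat and 4.64 in G4-ChIP. In the last 2 of these the window's highest fold stood at ranks 151 of 226 and 685 of 1455. The smallest −log10 q of the 3 peaks in each of them was 2.16 and 2.88, and none of these 6 peaks reached a −log10 q of 4.

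The 3 peaks of G4 DNA-IPnat were chr1:228609292-228610530, chr1:228638703-228640758 and chr1:228644249-228646017, with folds of 5.31, 4.71 and 5.16. G4-ChIP had chr1:228609055-228610467, chr1:228630903-228631868 and chr1:228638799-228642367, with folds of 4.45, 4.64 and 4.48. The first peak of both lists thus lay at RNA5S1, and another of each met at RNA5S14. Folds over the array ranged from 4.71 to 6.22 in the 5 peaks of G4 DNA-IPdenat, from 3.63 to 8.22 in the 5 of CTut, from 4.41 to 7.19 in the 4 of KDut and from 4.39 to 6.72 in the 5 of CTtr.

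Of the 17 genes of the 5S array, 2 were overlapped in G4 DNA-IPnat, 3 in G4-ChIP, 13 in G4 DNA-IPdenat, 12 in CTnuc, 16 in KDnuc, 12 in CTut, 15 in KDut, 13 in CTtr and 11 in KDtr. RNA5S1 and RNA5S14 were overlapped in all 9 lists. RNA5S9 was overlapped in KDnuc and KDut only. The folds of the peaks over RNA5S1 lay between 4.45 in G4-ChIP and 7.01 in KDnuc. The 17 genes have only 2 distinct sequences in hg38, with a GC content of 59.6% against 68.3% in the spacers between them.

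Coverage of the 5S genes and of the spacers between them was close in the ut and tr lists. Gene bases were covered to 70.6% and spacer bases to 68.8% in CTut, 87.3% and 83.3% in KDut, 72.2% and 72.6% in CTtr, and 61.3% and 66.8% in KDtr. The shares were 60.8% and 47.0% in CTnuc and 91.2% and 72.4% in KDnuc. They were 75.7% and 69.7% in G4 DNA-IPdenat, 11.8% and 11.4% in G4 DNA-IPnat, and 17.6% and 12.9% in G4-ChIP. Measured from the start of the 5S genes in the direction of transcription, CTnuc covered 81.2% of the units at 500 bases past the start and 6.25% at 500 bases before it. KDnuc covered 93.8% and 50% at these places, and CTut 62.5% and 75%.

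KD and CT did not differ in one direction over the 5S array. Coverage of the known bases of the window was 35.6% in CTnuc and 54.1% in KDnuc, 51.7% in CTut and 61.8% in KDut, and 54.1% in CTtr and 49.3% in KDtr. The mean difference was 7.94 ± 11.8 percentage points (SD, n = 3 pairs), smaller than its spread, with p = 0.5 in the exact sign-flip permutation test. Without the nuc pair it was 2.67 and without the tr pair 14.3. Of 2894 tiled windows of that length with an AbC peak, 4.15% had more coverage in KD in all 3 pairs. Only 1159 of these windows had a tr peak, without which a window could not count. The median ratio of the fold in KD to that in CT over shared stretches was 1.10 (nuc), 1.01 (ut) and 1.02 (tr). By bases, the mean fold of KD over that of CT was 1.10 (nuc), 0.960 (ut) and 1.00 (tr), and KD was higher on 78.1%, 20.5% and 47.7% of the shared bases.

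Other DNA near or like the arrays was covered less. The rest of the short arm of chromosome 21 was covered between 0.652% (G4-ChIP) and 16.4% (CTut), below the rDNA window in each list. Of 514 rRNA genes and pseudogenes annotated outside both windows, at most 3 were overlapped in a list, in CTut, and 5 lists overlapped none. CTut overlapped 0.751% of all protein-coding genes and covered 0.42% of the known genome, so that 3 of 514 is near the background. Of 26 genes for RNA polymerase I, its factors and nucleolar proteins, 3 were overlapped in G4 DNA-IPdenat (POLR1B, TAF1B and TAF1D, a subunit of the polymerase and subunits of its promoter factor) and none in the other 8 lists. G4 DNA-IPdenat overlapped 13.5% of all 19970 protein-coding genes, so that 3 of 26 is near the background. Of 22 genes for RNA polymerase III and 5S RNA, G4 DNA-IPdenat overlapped POLR3A, POLR3B and POLR3C, which encode subunits of the polymerase, and KDut and CTtr overlapped BRF1, which encodes an initiation factor. The 3 genes of G4 DNA-IPdenat are again near its background, and KDut overlapped 1.11% and CTtr 0.621% of all protein-coding genes.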

How the data were processed

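Broad peak lists of 9 libraries were analysed, and the 7 inputs were not analysed here. Reads had been mapped by the authors on hg38 lacking chrY, chrM and unplaced sequences (minimap2 per the labels, version not given in the sources used here). The paper's supplement names bowtie2 for the nuc reads, and which aligner made the nuc lists is not known. Reads with a unique alignment went into MACS2 with the input as control. For G4 DNA-IPdenat and the AbC lists the bandwidth was 3000 and the broad cutoff 0.01, with one fixed background, and for the remaining lists the bandwidth was the default of 300. The fold ratio of each peak, its −log10 p and −log10 q, and its score (10 times the −log10 q as a whole number) are as deposited by the authors.

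Members were peaks sharing at least 1 bp with a window. The members and gene lists were chosen with earlier results of these data known. Named places were the highest-fold peak of each list, every peak in lists with 5 or fewer, stretches covered by most lists, and annotated rRNA genes. Parts of the unit came from RefSeq on GRCh38, other genes from GENCODE version 44, and all peaks lay within hg38 chromosome lengths. Background windows were tiles of the same length with at least 50% known bases. KD and CT were compared by exact two-sided sign-flip permutation over 3 pairs, or by permuting the labels. With 1 library a list, methods were not tested against each other. Some sequences are not reported here. Functions were tested on simulated data. Alternatives were a −log10 q of at least 4, at least 50% of a peak inside the window, windows widened by 20%, annotated genes only, and each pair left out. An equal number of peaks in both lists of a pair was added after seeing the data. Python 3.11.15, numpy 2.4.6 and matplotlib 3.10.9 were used.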

Additional observations from a re-analysis of the deposited data

Results flagged for a closer look

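The change in coverage with CGGBP1 knockdown pointed in different directions in different pairs at 2 places, and the differences between pairs were not tested, since each pair has 1 list for each shRNA. Over the 5S window KD minus CT was 18.5 percentage points in the nuc pair, 10.1 in the ut pair and -4.80 in the tr pair. Over the 5′ external transcribed spacer of the 3 rDNA copies it was 48.5 percentage points in the nuc pair, -30.2 in the ut pair and 73.8 in the tr pair. The nuc values rest on lists that skip peak numbers in both places, 3 in CTnuc and 1 in KDnuc within the 5S window, and the part of the skipped peaks was not tested.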

How the results depend on the processing

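The results for whole windows kept their direction under all 25 alternatives tried, and counts of lists and summed covered bases stayed within 1.5 times their value. Permuting the labels and taking an equal number of peaks could not change a direction, since neither altered the mean difference here. KD minus CT in the rDNA window lay between 9.06 and 14.0 percentage points without each pair in turn, and at 12.2 with an exact permutation of the labels in place of the replicate block (p = 0.1, the smallest that 3 against 3 allows). With annotated 45S genes only it was 19.8 percentage points, with KD higher in 2 of 3 pairs, and with the widened window 8.13. An equal number of peaks in both lists of a pair, an alternative chosen after seeing the data, removed 0 peaks from either window, so its value of 12.2 is unchanged by construction and tests nothing. In the 5S window it lay between 2.67 (without the nuc pair) and 14.3 (without the tr pair), and the label permutation gave p = 0.5. For single lists, 7 of 72 values moved by more than 1.5 times, all with a −log10 q of at least 4. The 5S peaks fell to 0 in G4 DNA-IPnat and G4-ChIP, and to 3 over 15208 bp in G4 DNA-IPdenat, and the rDNA peaks of G4-ChIP fell from 12 to 6. G4-ChIP then no longer overlapped 18S in all 3 copies, which left 7 lists that did. Peak lists without counts, 1 library for each condition and near-identical copies limit all values, and no difference between the methods has an error.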
